A study of Danio rerio with 18 samples.

Results

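Kinesins and dynein are the motor proteins that move cargo along microtubules, and in a neuron with a long axon they carry nearly everything that the axon needs or sends back. The genes described here were chosen by name: kinesin heavy chains (kif or kifc followed by a digit), kinesin light chains (klc followed by a digit), and subunits of cytoplasmic dynein and of its activator dynactin (dync, dynl and dctn). The rule found 68 of the 25281 genes in the deposited tables, of which 63 had enough reads to be tested. The other 5 were kif17, kif28, kif16bb, kif9 and kif6. The rule reads lower-case symbols, so a few rows with upper-case symbols stayed outside it, among them KIF2A and DYNC2H1. Over the libraries KIF2A had 37.0 to 58.8 CPM. CPM are reads scaled to the library size after TMM adjustment, not to the library total. The rule also takes in kif1bp, which encodes a kinesin-binding protein and not a motor.

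Most kinesins walk towards the plus ends of microtubules, which in axons point to the synapse, and so drive anterograde transport. Kinesin-1 moves mitochondria and many other cargoes, kinesin-2 works in axons and in cilia, and kinesin-3 carries synaptic vesicle precursors and dense-core vesicles. Cytoplasmic dynein 1, with dynactin, moves the other way and brings endosomes and injury signals from the axon back to the cell body. Retinal ganglion cells are the only retinal neurons whose axons leave the eye, through the optic nerve, and in zebrafish these axons regrow after they are cut.

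RNA was sequenced from cells sorted as ganglion cells from adult zebrafish aged 3 to 5 months. All carried isl2b:GFP, a transgene in which control sequence of the ganglion cell gene isl2b drives green fluorescent protein. The optic nerve of 1 eye was transected, and cells of that eye gave the injured libraries and cells of the intact opposite eye the control libraries. Eyes were taken at 6, 12 and 24 h after injury (hpi), which makes 6 groups of 3 libraries. Each library was made from 1000 sorted fluorescent cells, and whether a library pools several fish is not given in the sources used here, so p-values measure the spread between these libraries, which may be partly technical. The control eyes belong to injured animals, so no group comes from an animal without surgery.

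Total counts ran from 15490375 to 28329194 per library, and the motor genes together took 0.204 to 0.312% of them, with 55 to 64 of the 68 genes detected per library. The libraries differed in RNA of ganglion cell markers. The summed counts of the ganglion cell marker list were 0.123 to 0.653% of a library, while rod and cone markers took 13.6 to 26.3%. The libraries thus also held RNA of other retinal cells, so levels given here are those of the sorted libraries. Which cells the motor reads come from was not tested. The gene isl2b itself, whose control sequence drives the reporter, ran from 12.2 to 298 CPM. The mean log2 CPM of 32 ganglion cell markers, called the ganglion cell score here, had these means (SD, n = 3 per group). The 6 hpi score was 5.75 ± 0.386 for control against 4.79 ± 0.906 for injured eyes, the 12 hpi score 5.52 ± 0.733 against 5.23 ± 1.29, and the 24 hpi score 5.83 ± 0.291 against 4.90 ± 0.493. For any gene in such a bulk sample, fewer cells of a type and less RNA per cell cannot be told apart. For injury, 3, 1 and 14 of the 32 markers had an unadjusted p under 0.05 by edgeR at 6, 12 and 24 hpi. Over all genes the shares were 9.28%, 3.64% and 8.48%. A score that changes with injury can take part of an injury effect with it when used as a covariate. How far it did so was not tested. The library names carry sample-sheet indices in 2 series, and 4 libraries (control 6 hpi replicates 2 and 3, control 24 hpi replicate 1 and injured 24 hpi replicate 3) belong to the first.

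The most abundant motor transcripts per length were small dynein light chains and dynactin subunits. Levels between genes are given here in TPM as deposited, which divide reads by transcript length,, over the 9 control libraries. The LC8 light chain gene dynll1 had 469 ± 122 TPM (SD, n = 9) with a range from 323 to 646. The Tctex-type light chain gene dynlt3 followed with 282 ± 29.4, the roadblock light chain gene dynlrb1_1 with 243 ± 25.0 and the second LC8 gene dynll2b with 221 ± 62.4 TPM. Dynactin genes came next, dctn3 at 200 ± 21.3, dctn5 at 150 ± 14.3, dctn4 at 137 ± 15.8 and dctn2 at 109 ± 11.1 TPM. In this order the range of each gene overlapped that of the next one, with 1 break among the members listed above 0: dynlt1 (82.0 to 137 TPM) stayed above kif1bp (41.9 to 72.8 TPM).

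The highest kinesin was kif5ba_2 with 55.0 ± 10.8 TPM, a kinesin-1 heavy chain of the KIF5B type, which is broadly expressed in mammals. It was followed by the kinesin-2 subunit kif3a with 54.4 ± 8.82, the kinesin-2 subunit kif3cb with 33.0 ± 13.2 and the kinesin-3 kif1aa with 28.8 ± 5.89 TPM. Over the 9 controls kif3cb ran from 9.04 to 49.4 TPM, a wider span than that of kif3a (44.4 to 73.9 TPM).

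**Figure D1:**
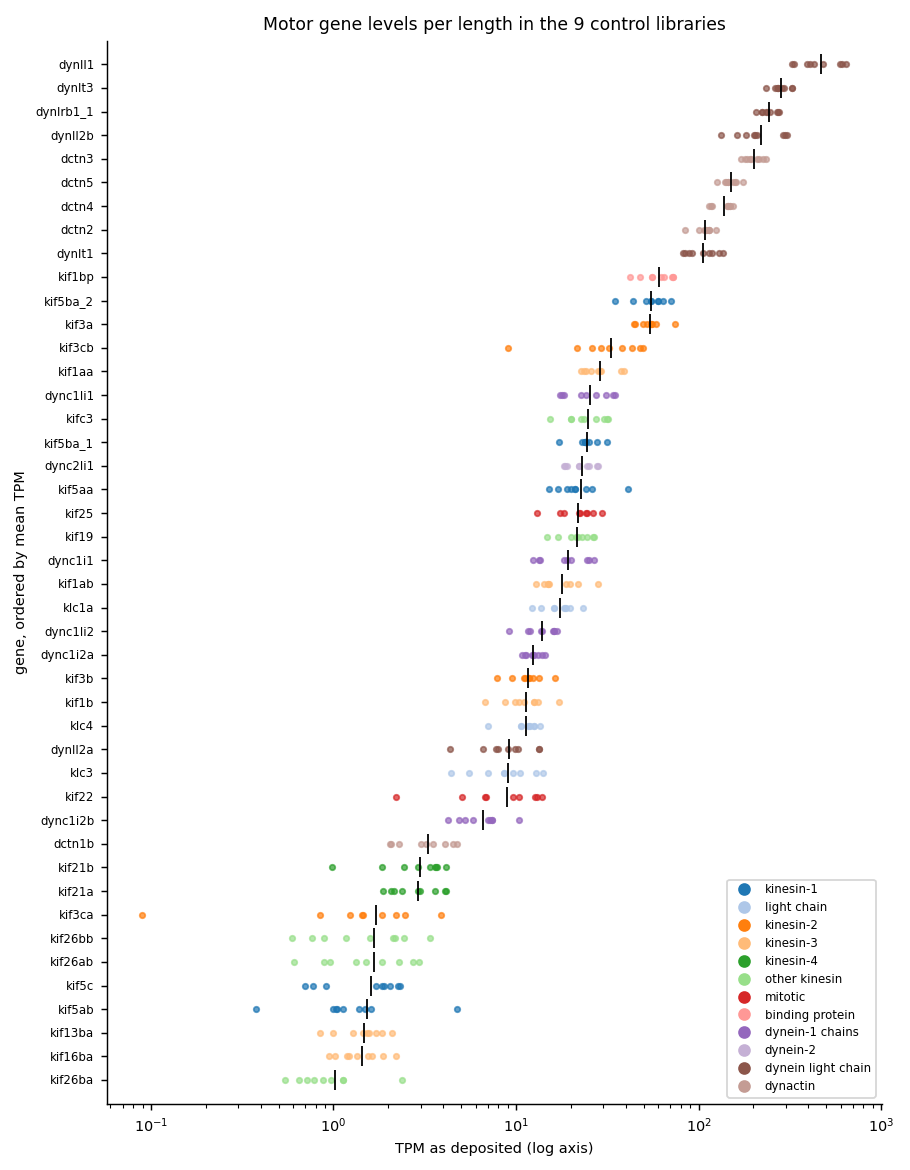
Level per length (deposited TPM, log axis) of the 44 motor genes with a mean of at least 1 TPM and a value above 0 in every control library. Each point is 1 of the 9 control libraries, the black tick is their mean and the colour gives the role; dynll1 is at the top with 469 TPM and kif26ba at the bottom with 1.02 TPM.

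Within a complex the subunits were listed at very different levels. The dynein heavy chain dync1h1, which holds the motor domain, had 0.389 ± 0.260 TPM and 0 to 55 reads per library. Its intermediate chains had 19.2 ± 5.41 (dync1i1) and 12.4 ± 1.21 TPM (dync1i2a), and its light intermediate chains 25.3 ± 6.90 (dync1li1) and 14.0 ± 2.60 TPM (dync1li2). Another dynein heavy chain, DYNC2H1, outside the rule, had 109 to 313 reads per library. Whether the row dync1h1 captures all reads of its gene was not tested, so its low value need not mean a low level of that transcript. The largest dynactin subunit, which binds microtubules, is encoded by dctn1a and dctn1b, and these had 0.496 ± 0.410 and 3.27 ± 1.03 TPM. Levels also differed between the kinesin-1 heavy chain genes, which encode the same kind of subunit. Here kif5ba_1 was at 24.5 ± 3.81, kif5aa at 22.7 ± 7.60, kif5c at 1.60 ± 0.641 and kif5ab at 1.53 ± 1.26 TPM. The homodimeric kinesin-2 gene kif17 had 0 to 6 reads per library, and kif9 and kif6 had 0 in every library.

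Kinesins of cell division, which move chromosomes and spindle microtubules, were low apart from kif25 (22.0 ± 5.06 TPM) and kif22 (8.94 ± 3.98 TPM). The other 9 of the 11 genes in that group had means from 0.126 to 1.22 TPM, and their reads were scattered over libraries. A list of 15 cycling cell markers summed to 41.4 to 152 CPM per library beside them. Whether these reads come from dividing cells was not tested.

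Across libraries the dynactin gene dctn5 kept within 74.9 to 94.0 CPM, while kif3cb ran from 7.86 to 92.4 CPM, and the heat map of deviations from each gene's mean shows both kinds of row. Injured 6 hpi replicate 1 and injured 12 hpi replicate 1, the libraries with the lowest ganglion cell scores, were low for kif3cb, kif1ab, kif5aa and dctn1b. The row of dynll1 divides by time, with the 6 libraries of 24 hpi above all the others.

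**Figure D2:**
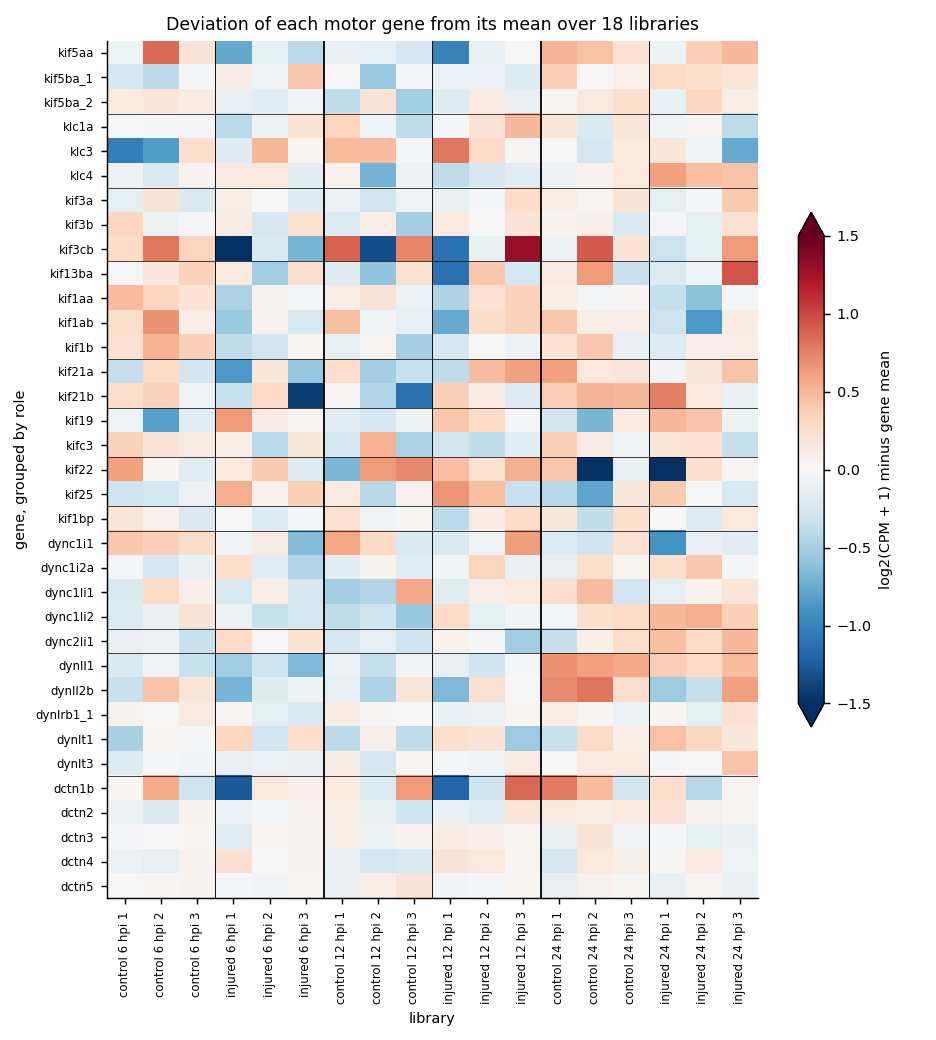
Deviation of log2(CPM + 1) from the gene's mean over 18 libraries for the 35 motor genes with an average log2 CPM of at least 3 (rows, grouped by role; columns, libraries by time point and group). Red is above and blue below the mean, and colours saturate at 1.5; dynll1 is red in the 6 libraries of 24 hpi.

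The injury comparison asks which motor genes differ between libraries of injured and of control eyes early after the lesion. By edgeR's quasi-likelihood test with Benjamini-Hochberg adjustment over all 17527 genes tested, and with SE as the standard error of each log2 value, 0 of the 63 motor genes passed an adjusted p of 0.05 at 6, 12 or 24 hpi, and 0% of all genes did. The smallest adjusted p among them was 0.430 at 6 hpi, 1 at 12 hpi and 0.311 at 24 hpi. DESeq2 also called 0 motor genes at each time point, but over all 17527 genes it called 7 at 12 hpi and 189 at 24 hpi. Counts at an unadjusted p under 0.05 are therefore given as descriptions, with the share of all genes tested.

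At 6 hpi 8 of the 63 had an unadjusted p under 0.05 (12.7%, against 9.28% of all genes). Of these 2 were higher in injured libraries (5.2% of all genes) and 6 lower (4.07% of all genes). Log2 fold changes lay below 0 for 43 of 63, against 51.8% of all genes, with a median of -0.24 among the members and -0.02 over all genes. Injured libraries were all below the controls for 9 members (7.13% of all genes) and all above for 3 (6.13% of all genes). This count of 8 moved with single libraries: it was 4 without control replicate 1, 2 without control replicate 2, and on leaving out injured replicate 1, 2 or 3 of 6 hpi it was 3, 15 and 4. It was 3 with the ganglion cell score as a covariate, 3 with the sheet set as a covariate and 1 in the second sheet set alone, which holds 1 control library at 6 hpi. At that time point 29 of 32 ganglion cell markers had a log2 fold change below 0 and 33 of 33 rod and cone markers above 0.

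At 12 hpi 2 of the 63 had an unadjusted p under 0.05 (3.17%, against 3.64% of all genes), both higher (1.9% of all genes) and 0 lower (1.74% of all genes). Log2 fold changes lay below 0 for 23 members, against 49.7% of all genes, and the median was 0.07 among the members and 0.001 over all genes. Injured libraries were all below the controls for 1 member (4.26% of all genes) and all above for 6 (4.14% of all genes). The count of 2 was 4 without control replicate 3, and on leaving out injured replicate 2 or 3 of 12 hpi it was 4 and 5. Over all genes it was 638 of 17527 in the principal fit. In those other fits it was 599 of 18183, 523 of 18107 and 847 of 18163, in the same order.

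At 24 hpi the count was 5 of 63 (7.94%, against 8.48% of all genes), with 2 higher (3.39% of all genes) and 3 lower (5.09% of all genes). Log2 fold changes lay below 0 for 39 members, against 48.3% of all genes, with a median of -0.09 and 0.02 over all genes. Injured libraries were all below the controls for 5 members (8.4% of all genes) and all above for 4 (7.85% of all genes). Without control replicate 1 or control replicate 2 of 24 hpi the count was 3, and without control replicate 3, injured replicate 3 or the first injured library of 12 hpi it was 8. Ganglion cell markers lay below 0 for 24 of 32 at this time point.

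Averaged over the time points, the injury effect had an unadjusted p under 0.05 for 12 of 63 (19.05%, against 12.6% of all genes), 4 higher (6.4% of all genes) and 8 lower (6.16% of all genes), while 0 passed the adjusted threshold. Log2 fold changes lay below 0 for 33 members, against 50.5% of all genes. The count of 12 was 7 with either covariate, 7 without control 6 hpi replicate 2, 7 on leaving out injured 12 hpi replicate 1, while leaving out injured 6 hpi replicate 1 gave 5. A joint test of whether the injury effect differs between time points called 0 members and 0% of all genes, and 4 members had an unadjusted p under 0.05 (6.35%, against 5% of all genes).

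**Figure D3:**
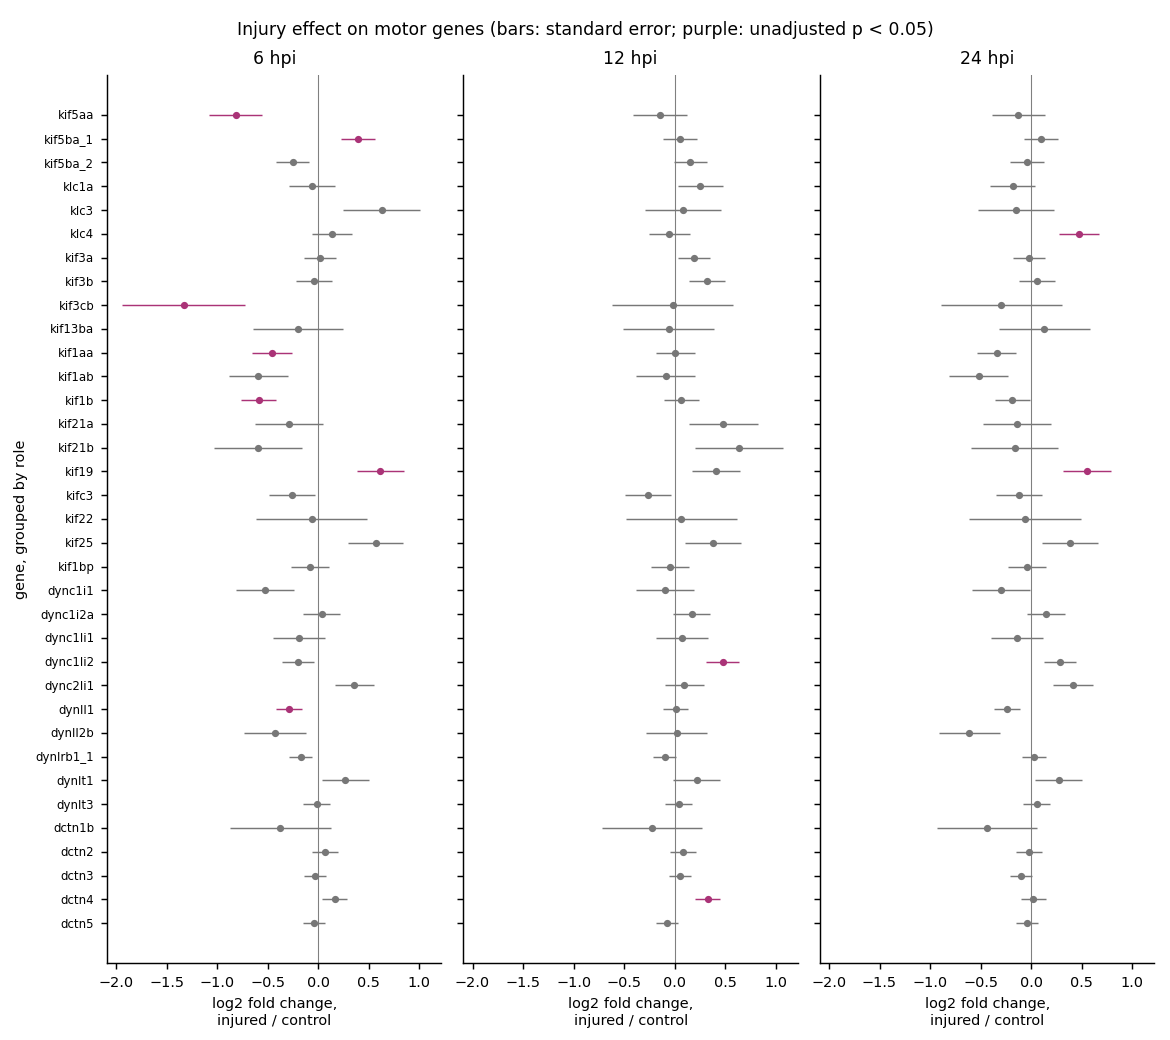
Log2 fold change, injured over control, at each time point for the 35 motor genes with an average log2 CPM of at least 3, grouped by role. Points are edgeR estimates, bars the SE, and purple marks an unadjusted p under 0.05; at 6 hpi kif5aa, kif1b, kif1aa and kif3cb lie left of 0 and kif19 and kif5ba_1 right of it, and none passed the adjusted threshold.

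Kinesin-1 heavy chains had no common direction at 6 hpi. The KIF5A-type gene kif5aa (chromosome 9, 265988 to 296169, minus strand, GRCz11), whose mammalian counterpart is a neuronal kinesin-1, had 45.8, 87.3 and 55.2 CPM in control replicates 1 to 3 and 27.8, 43.2 and 35.9 CPM in the injured ones. All 3 injured libraries lay below the lowest control. The log2 fold change was -0.82 (SE 0.26 by edgeR, adjusted p = 0.430, range over 27 alternatives 0.188 to 0.918). It was -0.50 without control replicate 2, the highest library, -0.48 with the ganglion cell score as a covariate, -0.54 with the sheet set as a covariate and -0.36 in the second sheet set. At 12 and 24 hpi kif5aa had log2 fold changes of -0.15 (SE 0.26) and -0.13 (SE 0.26), and the groups overlapped. A neighbouring gene overlaps kif5aa by 594 bases on the same strand, so reads there could be counted for either.

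The KIF5B-type gene kif5ba_1 (chromosome 2, 43705593 to 43739740, minus strand) went the other way at 6 hpi, with 38.8, 34.8 and 45.1 CPM in controls and 50.3, 43.9 and 61.3 CPM in injured libraries. Its log2 fold change was 0.39 (SE 0.17 by edgeR, adjusted p = 0.526), and 1 injured library lay within the control range. The other row of that name, kif5ba_2 (chromosome 12, 41510492 to 41551599, plus strand), had 103, 106 and 102 CPM in controls and 86.4, 83.1 and 91.2 CPM in injured libraries. Here all injured libraries were below all controls, with a log2 fold change of -0.25 (SE 0.17 by edgeR, adjusted p = 0.666). Both rows carry the same name in the tables, and reads of such similar genes may be split between them. Of the low genes, kif5ab had 2.79, 2.63 and 1.99 CPM in 24 hpi controls and 0.351, 1.204 and 0.0428 CPM in injured libraries, a log2 fold change of -2.20 (SE 0.86 by edgeR, adjusted p = 0.506) on 1 to 178 reads per library. Its neuronal relative kif5c ran from 0.666 to 7.02 CPM and had no unadjusted p under 0.05 at any time point.

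Kinesin light chains link kinesin-1 to cargo. At 24 hpi klc4 had 17.8, 19.999 and 21.4 CPM in controls and 29.8, 26.5 and 25.9 CPM in injured libraries. The groups did not overlap, and the log2 fold change was 0.47 (SE 0.20 by edgeR, adjusted p = 0.528), with 0.59 when the ganglion cell score was a covariate. At 6 and 12 hpi it was 0.14 and -0.05. The light chain klc1a ran from 15.1 to 28.9 CPM over all libraries with log2 fold changes of -0.06, 0.25 and -0.18.

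Among the kinesin-2 genes kif3a and kif3b, which pair with each other, differed little between groups, while the KIF3C-type genes were lower in injured libraries at 6 hpi. At 6 hpi kif3a had 89.7, 113 and 84.5 CPM in controls and 105, 98.5 and 86.9 CPM in injured libraries, a log2 fold change of 0.01 (SE 0.16). For kif3b it was -0.04 (SE 0.18) at 6 hpi, 0.32 (SE 0.18 by edgeR, adjusted p = 1) at 12 hpi and 0.05 at 24 hpi. The groups overlapped for both.

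The KIF3C-type gene kif3cb (chromosome 17, 37204229 to 37214196, minus strand), a partner of kif3a in mammalian neurons, was chosen here after its values were seen. At 6 hpi it had 44.9, 64.4 and 46.9 CPM in controls and 7.86, 31.5 and 22.5 CPM in injured libraries. All injured libraries were below all controls, by 2.51-fold in the fit (log2 fold change -1.33, SE 0.61 by edgeR, adjusted p = 0.531). In the authors' deposited table kif3cb was the only motor gene under a false discovery rate of 0.05, with a log2 fold change of -1.33 and a rate of 0.036 at 6 hpi, where 0.603% of all genes passed. That table had 0 motor genes under this rate at 12 hpi, with 0.109% of all genes, and 0 at 24 hpi, with 2.41%. Its model is not given in the sources used here. With the ganglion cell score as a covariate the log2 fold change was -0.46 (edgeR adjusted p = 0.874). At 12 hpi the controls had 68.9, 14.1 and 62.0 CPM and the injured libraries 16.5, 34.4 and 92.4 CPM, a span that covered both groups, and the log2 fold change was -0.02 (SE 0.60). The second KIF3C-type gene, kif3ca, also chosen after its values were seen, had 2.08, 4.08 and 3.18 CPM in 6 hpi controls and 0.767, 1.22 and 0.169 CPM after injury. The fitted log2 fold change was -2.10 (SE 0.88 by edgeR, adjusted p = 0.518), on 2 to 101 reads per library.

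Of the 9 kinesin-3 genes tested, 5 had a log2 fold change below 0 at 6 hpi and 2 an unadjusted p under 0.05, both lower. The gene kif1b (chromosome 23, 29396182 to 29505645, minus strand), which carries vesicle and mitochondrial cargo in mammals, had 66.7, 81.8 and 73.1 CPM in controls and 43.4, 46.3 and 57.7 CPM in injured libraries. All injured libraries were below all controls, and the log2 fold change of -0.59 (SE 0.17 by edgeR, adjusted p = 0.430, range over 27 alternatives 0.143 to 0.918) had the smallest unadjusted p of any motor gene at that time. It was -0.55 with the ganglion cell score as a covariate, -0.50 with the sheet set as a covariate and -0.44 in the second sheet set, and lay between -0.72 and -0.51 when single libraries were left out. Its difference at 12 hpi was 0.07 (SE 0.17) and at 24 hpi -0.18 (SE 0.17), with overlapping groups. The joint test of whether these 3 effects differ gave an edgeR adjusted p = 0.994 for kif1b. Its 12 hpi controls ran from 39.8 to 58.4 CPM, all below the 6 hpi controls, and all injured libraries of 6 hpi fell inside that span. The 24 hpi controls ran from 52.0 to 75.4 CPM and overlapped those of 6 hpi. Whether the 6 hpi difference reflects high controls or low injured libraries was not tested.

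The KIF1A-type genes kif1aa (chromosome 6, 27146671 to 27273027, plus strand) and kif1ab (chromosome 2, 22694382 to 22758590, plus strand), whose mammalian counterpart carries synaptic vesicle precursors, showed the same order at 6 hpi. For kif1aa controls had 178, 162 and 149 CPM and injured libraries 93.8, 135 and 128 CPM. For kif1ab the values were 54.4, 73.0 and 48.1 CPM in controls and 30.5, 47.5 and 38.4 CPM in injured libraries. Neither gene's groups overlapped, with log2 fold changes of -0.46 (SE 0.19 by edgeR, adjusted p = 0.526) and -0.59 (SE 0.29 by edgeR, adjusted p = 0.554). With the ganglion cell score as a covariate kif1aa was at -0.26 (edgeR adjusted p = 0.869). At 12 hpi the groups overlapped for kif1aa and kif1ab, and the authors' deposited log2 fold changes were 0.01 and -0.08. At 24 hpi the same genes had -0.34 (edgeR adjusted p = 0.671) and -0.52 (edgeR adjusted p = 0.660). Averaged over time they had -0.26 (edgeR adjusted p = 0.348) and -0.40 (edgeR adjusted p = 0.338).

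The kinesin-4 gene kif21a, which slows microtubule growth in mammals, ran from 6.52 to 19.9 CPM and had log2 fold changes of -0.29, 0.48 and -0.14, with standard errors of 0.34 and overlapping groups at each time point.

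Among the genes higher in injured libraries at all 3 time points was kif19 (chromosome 12, 38770654 to 38805710, plus strand), which in mice shortens microtubules at the tips of motile cilia. The controls of 6 hpi had 76.1, 44.8 and 71.1 CPM, those of 12 hpi 71.6, 66.9 and 75.6 CPM, and those of 24 hpi 65.6, 49.3 and 87.4 CPM. After injury kif19 had 125, 87.4 and 82.3 CPM (6 hpi), 107, 98.7 and 79.0 (12 hpi) and then 113, 108 and 75.7 (24 hpi). The groups did not overlap at 6 and 12 hpi, and at 24 hpi 1 control library lay above the lowest injured one. Log2 fold changes were 0.62 (SE 0.24 by edgeR, adjusted p = 0.487), 0.41 (SE 0.24 by edgeR, adjusted p = 1) and 0.55 (SE 0.24 by edgeR, adjusted p = 0.535). Averaged over the time points kif19 was 1.44-fold higher (log2 0.53, SE 0.14 by edgeR, adjusted p = 0.181, range over 26 alternatives 0.0204 to 0.582). The value of 0.0204 came from DESeq2, the 1 alternative of 26 that called it. With the ganglion cell score as a covariate the mean effect was 0.36 (edgeR adjusted p = 0.514), and it lay between 0.46 and 0.61 when single libraries were left out.

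The kinesin kif25 is known in human cells for its part in keeping centrosomes together. At 6 hpi it had 25.0, 25.8 and 29.3 CPM in controls and 45.9, 32.5 and 40.2 CPM in injured libraries, without overlap. The log2 fold change was 0.57 (SE 0.28 by edgeR, adjusted p = 0.550), and the mean effect over time was 0.44 (SE 0.16 by edgeR, adjusted p = 0.272), which was 0.25 (edgeR adjusted p = 0.796) with the ganglion cell score as a covariate. Of the spindle kinesins, kifc1 (at 24 hpi and averaged over time) and kif20ba (averaged over time) also had an unadjusted p under 0.05, both lower, on 0 to 173 and 0 to 41 reads per library. Of the 8 genes grouped as other kinesins, 2 (kif6 and kif9) had no reads, and kifc3, which walks to minus ends, had log2 fold changes of -0.26, -0.26 and -0.12.

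**Figure D4:**
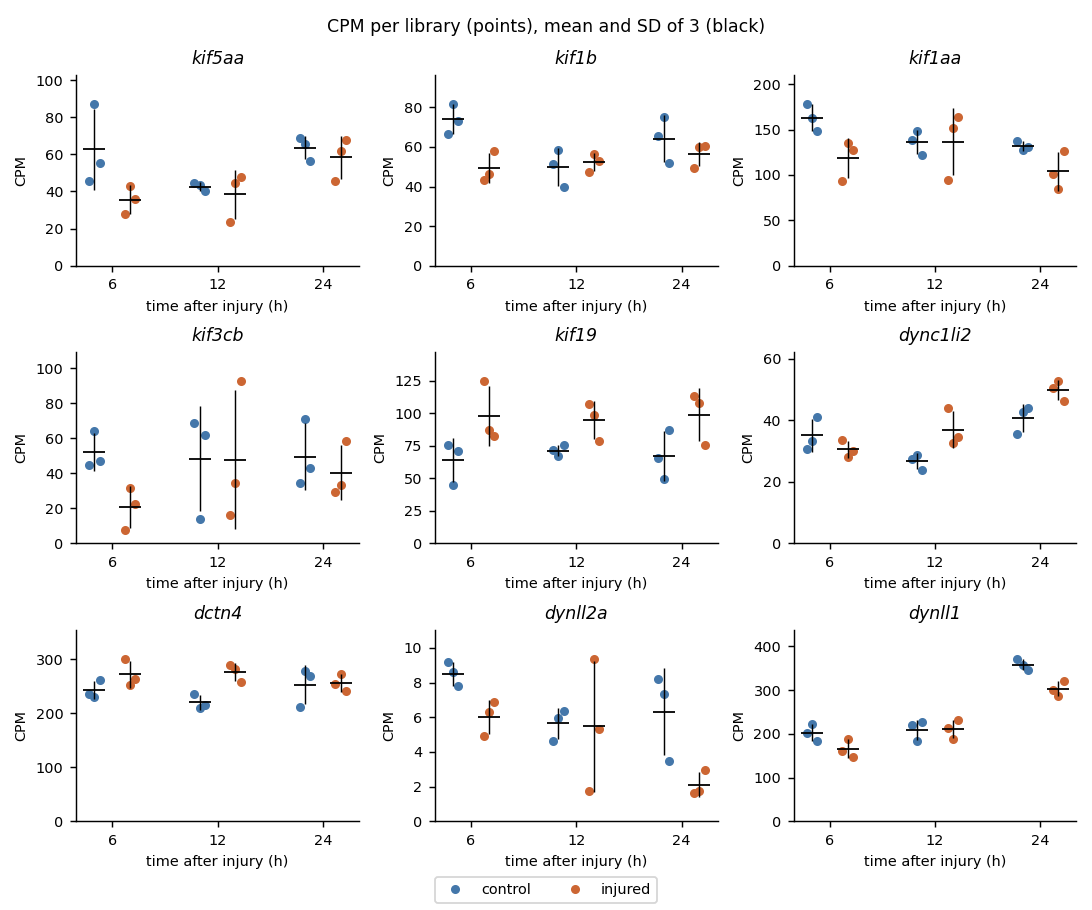
CPM of 9 motor genes in control (blue) and injured (orange) libraries at 6, 12 and 24 h after injury. Points are libraries, black ticks and bars the mean and SD of 3; kif5aa, kif1b, kif1aa and kif3cb lie lower and kif19 higher in injured libraries at 6 hpi, and dynll1 is higher at 24 hpi in both groups.

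Chains of the dynein 1 core had no common direction. At 6 hpi 1 of the 6 genes, dync1i1, had all injured libraries (22.0, 24.9 and 14.2 CPM) below all controls (30.7, 29.4 and 27.8 CPM), with a log2 fold change of -0.52 (SE 0.29 by edgeR, adjusted p = 0.600). The heavy chain dync1h1 had 0 to 55 reads per library and log2 fold changes of -0.73 (SE 1.24), -0.73 (SE 1.26) and -0.40 (SE 1.23). Its sister intermediate chain dync1i2a ran from 28.1 to 50.9 CPM with log2 fold changes of 0.03, 0.17 and 0.15, and dync1li1 from 28.2 to 60.6 CPM with -0.19, 0.07 and -0.14. Groups overlapped for both.

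The light intermediate chain dync1li2 (chromosome 7, 44674956 to 44704910, minus strand), which binds cargo adaptors, had 27.3, 28.9 and 23.8 CPM in 12 hpi controls and 43.9, 32.5 and 34.7 CPM in injured libraries. Those groups did not overlap, and the log2 fold change was 0.47 (SE 0.16 by edgeR, adjusted p = 1). At 24 hpi they did not overlap either, with 35.5, 42.6 and 44.0 CPM against 50.4, 52.7 and 46.3 CPM (log2 fold change 0.29, SE 0.16 by edgeR, adjusted p = 0.647). At 6 hpi the sign was opposite, -0.20 (SE 0.16), and the joint test of a difference between time points gave an edgeR adjusted p = 0.992. The controls of dync1li2 had their lowest mean at 12 hpi, and the test of the control groups over time gave an edgeR adjusted p = 0.142, where DESeq2 gave an adjusted p = 0.0268.

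Dynein 2 works in the return transport of cilia, and the rule finds its light intermediate chain dync2li1. Injured libraries were above the controls at 6 hpi (23.9, 19.2 and 22.5 against 17.8, 18.3 and 15.1 CPM) and at 24 hpi (26.7, 24.1 and 27.6 against 15.1, 20.5 and 23.3 CPM). At 12 hpi the groups overlapped (20.2, 19.04 and 13.1 against 16.1, 17.3 and 15.6 CPM), with a log2 fold change of 0.10. The mean effect was 0.29 (SE 0.11 by edgeR, adjusted p = 0.315), and 0.19 (edgeR adjusted p = 0.791) with the ganglion cell score as a covariate. A gene on the opposite strand, cep170aa, overlaps dync2li1 by 950 bases, and the sources used here do not say whether counting used the strand.

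Dynein light chains hold dimers together and bind cargo, and LC8 also works outside dynein. The LC8 gene dynll2a (chromosome 15, 16066091 to 16070731, minus strand) had 8.18, 7.31 and 3.48 CPM in 24 hpi controls and 1.63, 1.76 and 2.95 CPM in injured libraries. All injured libraries were below all controls, by 2.98-fold in the fit (log2 fold change -1.57, SE 0.48 by edgeR, adjusted p = 0.311, range over 27 alternatives 0.0867 to 0.781). This was -1.19 (edgeR adjusted p = 0.562) with the ganglion cell score as a covariate and -1.67 in the second sheet set. At 6 hpi dynll2a also lay lower in all injured libraries (4.94, 6.31 and 6.85 against 9.16, 8.60 and 7.79 CPM, log2 fold change -0.50), and at 12 hpi the groups overlapped. The Tctex chain dynlt1 ran from 44.8 to 89.3 CPM and had log2 fold changes of 0.27, 0.22 and 0.27 with standard errors of 0.23, and the groups overlapped each time. The Tctex chain dynlt3 had log2 fold changes of -0.02, 0.04 and 0.06 and dynlrb1_1 of -0.17, -0.10 and 0.03. The row dynlrb1_2 had 1 to 14 reads per library and shares 4026 bases with dynlrb1_1, so its values are uncertain.

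The 1 motor gene that passed the adjusted threshold in any comparison of the principal test was dynll1 (chromosome 8, 2487250 to 2491471, plus strand), and it changed between time points in the control eyes. The controls of 6 hpi had 201, 223 and 185 CPM, those of 12 hpi 220, 184 and 226 CPM, and those of 24 hpi 371, 358 and 346 CPM. The 24 hpi libraries lay above all the others, and the earlier time points overlapped. The rise from 6 to 24 hpi was 1.76-fold (log2 0.82, SE 0.13 by edgeR, adjusted p = 0.0019), and the joint test over the 3 control groups gave an adjusted p of 0.0016. In the joint test 1 of 63 members was called, against 1.54% of all genes, and 3 had an unadjusted p under 0.05, against 12% of all genes; for 24 against 6 hpi it was 1 of 63, against 1.84% of all genes.

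That call held in 23 of 25 alternatives. In the joint test it was lost when libraries were scaled by their totals (log2 0.63, adjusted p = 0.0692) and in the second sheet set alone (log2 0.81), and leaving out single libraries gave log2 values from 0.76 to 0.90. Time after surgery on the other eye and time of collection cannot be told apart in these groups. In controls rod and cone markers took 13.6 to 21.8% (6 hpi), 17.7 to 20.8% (12 hpi) and 22.7 to 23.0% (24 hpi) of counts. In injured libraries they took 16.6 to 24.8% (6 hpi), 17.1 to 25.4% (12 hpi) and 24.9 to 26.3% (24 hpi). Their part in the result was not tested.

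Injured libraries had the same order for dynll1, with 162, 189 and 147 CPM (6 hpi), 213, 189 and 231 CPM (12 hpi), and 301, 288 and 321 CPM (24 hpi). At 24 hpi all injured libraries lay below all controls, with a log2 fold change of -0.24 (SE 0.13 by edgeR, adjusted p = 0.624), and at 6 hpi the difference was -0.29 (SE 0.13 by edgeR, adjusted p = 0.526) with 1 injured library inside the control range.

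Of the 6 dynactin genes 1 had an unadjusted p under 0.05 at any time point. Across the 3 time points dctn2 had log2 fold changes of 0.06, 0.08 and -0.02 with standard errors of 0.13, and dctn3 and dctn5 stayed between -0.10 and 0.05. Their libraries ran from 99.3 to 142 CPM for dctn2. That gene was dctn4 (chromosome 14, 49462855 to 49490735, plus strand), a subunit of the pointed-end complex of dynactin, with 236, 209 and 216 CPM in 12 hpi controls and 290, 281 and 258 CPM in injured libraries. Its groups did not overlap there, and the log2 fold change was 0.33 (SE 0.12 by edgeR, adjusted p = 1), or 1.25-fold. At 6 and 24 hpi it was 0.16 and 0.02 with overlapping groups. The low genes dctn1a and dctn1b varied more, dctn1b from 4.70 to 23.8 CPM and dctn1a on 2 to 113 reads per library. The log2 fold changes of dctn1a were -0.24 (SE 0.91), 1.12 (SE 0.92) and 1.69 (SE 0.93), the last with an edgeR adjusted p = 0.651, and neither gene had an unadjusted p under 0.05.

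How far motor transcripts follow the ganglion cell score of a library was asked within the 9 control and within the 9 injured libraries. All pairings were permuted exactly, with adjustment over all genes with a correlation (17514 and 17522). The permutations ran across the time points of a set, so differences between time points enter these correlations and p-values. In controls 0 of 63 members passed (0.0114% of all genes), and in injured libraries 0 of 63 (0.605% of all genes). At an unadjusted exact p under 0.05 there were 9 in controls (14.3%, against 7.34% of all genes), of which 6 were positive (9.52% against 5.14%) and 3 negative (4.76% against 2.2%). In injured libraries there were 14 (22.2%, against 14.5% of all genes), of which 11 were positive (17.5% against 8.61%) and 3 negative (4.76% against 5.91%). Correlations lay above 0 for 36 members in controls (48.6% of all genes) and 40 in injured libraries (52.5% of all genes).

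An unadjusted exact p under 0.05 with the same sign in both sets was found for 4 of 63 members, kif3cb, kif3ca, kif26bb and dynll2b, a choice made after their values were seen. For kif3cb Pearson's r was 0.94 in controls (two-sided exact p = 0.0014, adjusted 0.298; Spearman rho 0.83, exact p = 0.0083) and 0.83 in injured libraries (exact p = 0.0044, adjusted 0.136; rho 0.78, exact p = 0.017). Without the 2 libraries farthest from the median score r was 0.78 in controls and 0.79 in injured libraries, and in the second sheet set 0.97 over 6 controls and 0.82 over 8 injured libraries. For kif3ca r was 0.84 in controls (exact p = 0.022; rho 0.48, exact p = 0.19) but 0.03 without the 2 farthest libraries, on which it rests. With both values centred within each of the 6 groups r of kif3cb was 0.90 over 18 libraries.

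The KIF1A-type genes followed the score in the injured set. In injured libraries kif1ab had r = 0.90 (exact p = 0.0018, adjusted 0.0996; rho 0.88, exact p = 0.0031) and kif1aa r = 0.86 (exact p = 0.0057, adjusted 0.147; rho 0.87, exact p = 0.0045), and without the 2 farthest libraries 0.88 and 0.76. In controls r was 0.49 (exact p = 0.18; rho 0.52, exact p = 0.16) for kif1ab and -0.28 (exact p = 0.47; rho -0.25, exact p = 0.52) for kif1aa. The difference between these correlations was not tested, and the scores of injured libraries span a wider range (3.81 to 6.32) than those of controls (4.68 to 6.17). In injured libraries kif21a (r = 0.83, exact p = 0.0067, adjusted 0.159; rho 0.75, exact p = 0.026) and kif26ab (r = 0.93, exact p = 0.0005, adjusted 0.0591; rho 0.88, exact p = 0.0031) also followed the score, with r = 0.63 (exact p = 0.056; rho 0.63, exact p = 0.076) for kif21a and 0.32 (exact p = 0.42; rho 0.22, exact p = 0.58) for kif26ab in controls.

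Negative relations in injured libraries were those of kif19 (r = -0.69, exact p = 0.046, adjusted 0.333; rho -0.62, exact p = 0.086), kif25 (r = -0.74, exact p = 0.028, adjusted 0.271; rho -0.65, exact p = 0.067) and dynlt1 (r = -0.79, exact p = 0.0039, adjusted 0.131; rho -0.72, exact p = 0.037). Without the 2 farthest libraries they were -0.56, -0.55 and -0.40. All 3 had a mean injury effect above 0 in a comparison where the score was lower in injured libraries. Covariate values are given above for kif19 and kif25 and not for dynlt1, and the part of cell content was not tested. The genes kif26ab and dynlt1 were chosen after their values were seen.

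**Figure D5:**
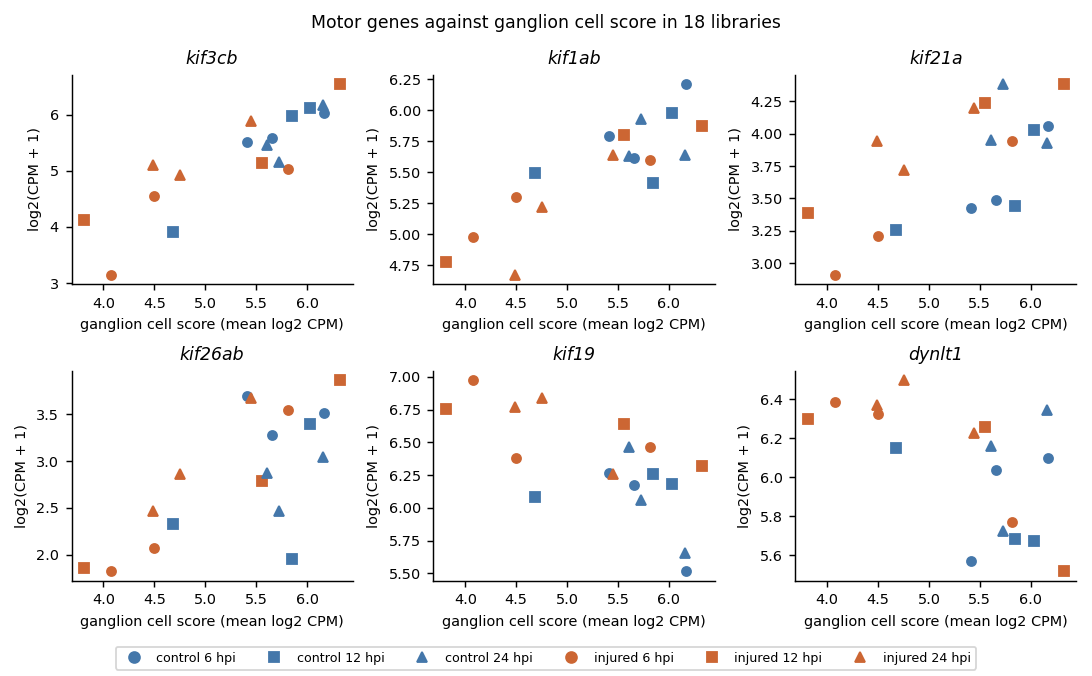
Log2(CPM + 1) of 6 motor genes against the ganglion cell score, the mean log2 CPM of 32 ganglion cell markers, in 9 control (blue) and 9 injured (orange) libraries, with symbols for time points. Values of kif3cb climb with the score in both sets, those of kif1ab, kif21a and kif26ab climb in the injured libraries, and kif19 and dynlt1 run the other way there.

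A rod and cone score in place of the ganglion cell score, added after the data had been seen, gave 6 members at an unadjusted exact p under 0.05 in controls (6.36% of all genes), 0 positive and 6 negative (3.6% of all genes), and 9 in injured libraries (6.11% of all genes), with 0 called in either. The gene kif1b stood out in controls with r = -0.95 (exact p = 0.00026, adjusted 0.578; rho -0.93, exact p = 0.00075), and -0.88 without the 2 libraries farthest from the median. The mean rod and cone score of controls was 8.24, 8.99 and 8.56 at 6, 12 and 24 hpi. This score is a mean of log2 CPM over the markers and does not stand for their share of counts. Control 6 hpi replicate 2 had a score of 8.15 at a share of 13.6%. For control 24 hpi replicate 2 the score was 8.22 at a share of 23.0%. These permutations also ran across time points, and the part of time in the correlation was not tested.

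Partners of the motors were counted from 4 lists fixed by function, and for injury 0 genes were called in any of them. Of 31 tested dynein adaptors and regulators, 4, 3 and 2 had an unadjusted p under 0.05 at 6, 12 and 24 hpi, where 9.28%, 3.64% and 8.48% of all genes did, shares that apply to the counts of the other lists too. The cargo adaptor hook1 had a log2 fold change of -1.12 at 24 hpi (SE 0.25 by edgeR, adjusted p = 0.169), and the adaptor bicd2 0.97 at 12 hpi (SE 0.31 by edgeR). For nin the unadjusted p was under 0.05 at each time point. Its log2 fold change was 1.30 at 6 hpi (SE 0.46 by edgeR, adjusted p = 0.471). At 12 hpi it was -1.12 (SE 0.46) and at 24 hpi -1.12 (SE 0.46 by edgeR, adjusted p = 0.513). The joint test of a difference between time points gave nin an edgeR adjusted p = 0.992. Of 33 kinesin-1 and mitochondrial adaptors the counts were 4, 2 and 4, and the amyloid precursor gene appa had a mean effect of -0.33 (SE 0.07 by edgeR, adjusted p = 0.133).

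Of 17 tested partners of kinesin-2 and kinesin-3, a list that contains kif1bp itself, the counts were 3, 1 and 3. The synaptic vesicle GTPase gene rab3ab had a log2 fold change of -1.39 at 24 hpi (SE 0.25 by edgeR, adjusted p = 0.105) and a mean effect of -0.77 (SE 0.14 by edgeR, adjusted p = 0.0842). The kinesin-3 adaptor madd had -0.77 at 6 hpi (SE 0.25 by edgeR, adjusted p = 0.430). Of 19 tested microtubule-associated proteins of axons the counts were 3, 0 and 2, with the microtubule-binding map4l at -0.41 on average (SE 0.11 by edgeR, adjusted p = 0.196). In the edgeR joint test of controls over time 4 of the 100 entries tested in these lists passed the adjusted threshold (1.54% of all genes). Here dclk1a rose from 6 to 24 hpi by 1.23 on the log2 scale (adjusted p = 0.0048) and nin by 2.51 (adjusted p = 0.0233). Lower at 24 hpi were ndel1a by 0.72 (adjusted p = 0.0406) and the list member named si:dkey-28e7.3 by 0.73 (adjusted p = 0.0155). The injury effect of nin was above 0 at 6 hpi and below 0 at 24 hpi, so its rise is stated for controls only.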

How the data were processed

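Gene counts, TPM, log2 fold changes and adjusted p-values (false discovery rates) were deposited by the authors in 3 tables, 1 per time point, covering 18 libraries. Per the labels' protocols, 1000 sorted cells per library were amplified with SMART-Seq and made into Nextera XT libraries. Per the submitters' processing notes the build is GRCz11. The aligner, annotation and strand setting are not given in the sources used here, and the deposited column header marks injured 6 hpi replicate 1 as trimmed. The labels mention 5 replicates per time point, of which 3 per group are analysed here. No pair of libraries of a group agreed within sampling noise (chi-square per gene 27.7 to 124 over 18 pairs).

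Counts were fitted with edgeR 4.0.16 in R 4.3.3 (TMM scaling, filterByExpr with a minimum count of 10, quasi-likelihood test, 1 model with a mean per group over 18 libraries, Benjamini-Hochberg adjustment over 17527 genes, threshold 0.05). The standard error is the log2 fold change divided by the root of F. CPM were computed from the counts with the library sizes after TMM scaling, not with the library totals. Alternatives used DESeq2 1.42.0 or, within edgeR, other scalings and filters, covariates, a replicate term and libraries left out. The ganglion cell score averaged log2 CPM (prior count 2), and exact two-sided permutation p-values of correlations (Python 3.11.15, scipy 1.17.1) were adjusted over all genes, not over the members as first planned. On simulated data for injury at 24 hpi with 17527 genes, the test recovered 52.2% of genes changed 2-fold, 97.0% of those changed 4-fold and 97.0% of those changed 8-fold, with 4 false calls. The changed genes were all drawn from those with an average log2 CPM above 3. Of the 63 motor genes tested 35 reached that level, so these rates do not apply to the lower ones. Each gene was drawn independently, so differences in cell content shared by the genes of a library were absent. Changes under 2-fold were not simulated, so the rates do not apply to the smaller effects given above.

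The members and gene lists were chosen with earlier results of these data known. Genes named were those of a fixed list of transport motors and those leading each comparison. Others were named after their values were seen, and not all are marked so where they appear. Unmarked ones include the partner genes hook1, bicd2, nin, appa, rab3ab, madd and map4l, and the kinesins kifc1, kif20ba and kif18a.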

Additional observations from a re-analysis of the deposited data

Results flagged for a closer look

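The spindle kinesin kif18a had opposite signs at 12 and 24 hpi. At 6 hpi the groups overlapped, with 0.629, 1.45 and 0.049 CPM in controls and 5.23, 0.768 and 2.83 CPM in injured libraries. At 12 hpi all injured libraries (2.66, 2.30 and 2.68 CPM) lay above all controls (0.441, 0.056 and 1.47 CPM), with a log2 fold change of 1.96, and at 24 hpi all injured libraries (1.01, 0.602 and 0.642 CPM) lay below all controls (1.23, 1.44 and 3.60 CPM), with -1.47. Such separation held for 4.14% of all genes at 12 hpi (above) and 8.4% at 24 hpi (below). The pairwise difference between 12 and 24 hpi was not tested. The joint test over 3 time points gave an edgeR adjusted p = 0.992, on 1 to 109 reads per library.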

How the results depend on the processing

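Of 3957 values of named motor genes under the alternatives, 3779 kept their direction and side of the threshold, 174 changed sign without having been called, 2 became calls, 2 calls were lost and 0 calls reversed. The count of members called for the mean injury effect was 0, and 1 with DESeq2 (kif19). The share of all genes that DESeq2 called for the mean effect is not given here. The count called in controls over time was 1, where 270 of 17527 genes were called. It was 2 with DESeq2 (728 of 17527 genes) and 0 with library totals in place of TMM (302 of 17527 genes). The cause was not tested. The number of members at an unadjusted p under 0.05 in the joint test of a difference between time points was 4, and 1 with a replicate block, 1 with the sheet set as a covariate and 0 in the second sheet set. At 12 hpi that number was 2 (638 of 17527 genes), and 4 in a fit of the 6 libraries of the time point (378 of 15251 genes). With the replicate block 0 members were called at 6, 12 or 24 hpi. Same-numbered libraries had correlations of -0.068 to 0.130 in their deviations from the group means, against -0.170 to 0.156 for different numbers. Not every pair was over 0.1, so the block stayed an alternative, although at 6 hpi each library correlated best with its own number (0.068 to 0.130, against -0.105 to 0.018), a hint from the data and not from the labels. Whether the numbers mark the same fish is not given in the sources used here. With 3 libraries per group, genes with few reads, such as dync1h1, kif17 and most spindle kinesins, allow no firm statement in either direction.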
